A study of Mus musculus with 2 samples.

Results

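The genes that encode the initiation and elongation factors of protein synthesis were examined in regulatory T (Treg) cells of injured mouse muscle. They were taken by name, as every row of the deposited count table whose symbol starts with Eif or Eef, leaving out the Eif2ak kinases, which gave 63 of 23337 rows. Of these, 4 (Eif2c1 to Eif2c4) are former names of Argonaute genes, which act in microRNA silencing, and are described apart. RNA came from 2 libraries, 1 per treatment, of 5000 twice-sorted Treg cells from 8-week-old male mice of a Foxp3-IRES-GFP strain on C57BL/6, in which a green fluorescent protein marks cells that express Foxp3. In both groups 3 hindlimb muscles (tibialis anterior, quadriceps and gastrocnemius) were injured with cardiotoxin, a venom protein that destroys myofibres, and collected 4 days later. The IL-33 group also had 0.3 ug of recombinant IL-33, a cytokine released by damaged tissue, in the muscle, and the PBS group had buffer. How many mice gave each library is not given in the sources used here. With 1 library per group there is no spread between replicates, no test and no p-value, so a gene called higher or lower differs between 2 libraries, which need not be an effect of the treatment.

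Translation starts when eIF2, loaded with GTP and the initiator tRNA, joins the small ribosomal subunit with eIF1, eIF1A, eIF3 and eIF5. The eIF4F complex (the cap-binding protein eIF4E, the scaffold eIF4G and the helicase eIF4A) brings this assembly to the mRNA cap, and eIF2B recharges eIF2 with GTP after each start. In elongation, eEF1A delivers aminoacyl-tRNAs, eEF2 moves the ribosome along, and eIF5A helps at slow peptide bonds. T cells raise protein synthesis when they are activated, and stress kinases slow it by phosphorylating eIF2 so that it traps eIF2B.

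Most factor genes, 54 of the 59 that were compared, lay within 2-fold. Past 2-fold, Eif2b1, Eif2b2 (ratio 3.95), Eif5a2 and Eefsec were higher in the IL-33 library (15.5% of all genes were) and the translation repressor gene Eif4ebp3 (0.366) was lower (16.3% were). The other 3 eIF2B genes and Eif5a had ratios above 1 but within 2-fold, and 28.4% of all genes were at or above the lowest eIF2B gene. The helicase gene Eif4a2 (ratio 0.584) was also within 2-fold. Levels are in CPM (the share of a library's counts, times 1000000), and ratios are IL-33 over PBS with the exact 95% interval of counting error.

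To show the genes these results turn on, the 250 bases before and 30 bases after the annotated start are printed for 4 of the eIF2B genes and both eIF5A genes (RefSeq, build GRCm38.p6, 5′ to 3′ on the strand of the gene). Capitals mark the E-box CACGTG, bound by factors such as MYC, and the ETS factor core CCGGAAG, each searched on both strands.
Eif2b1, chr5:124579102-124579381, minus strand: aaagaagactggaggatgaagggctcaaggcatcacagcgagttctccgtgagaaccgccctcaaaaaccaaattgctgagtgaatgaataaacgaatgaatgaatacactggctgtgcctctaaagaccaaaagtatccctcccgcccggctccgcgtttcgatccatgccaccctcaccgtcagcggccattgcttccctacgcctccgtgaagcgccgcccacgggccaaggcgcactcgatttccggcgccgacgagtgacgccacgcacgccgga
Eif2b2, chr12:85219231-85219510, plus strand: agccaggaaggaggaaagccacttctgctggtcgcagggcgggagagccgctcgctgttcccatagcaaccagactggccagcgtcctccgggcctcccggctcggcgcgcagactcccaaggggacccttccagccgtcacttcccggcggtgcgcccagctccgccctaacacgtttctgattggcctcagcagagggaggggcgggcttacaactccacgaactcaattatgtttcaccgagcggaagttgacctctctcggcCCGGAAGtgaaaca
Eif2b4, chr5:31193110-31193389, minus strand: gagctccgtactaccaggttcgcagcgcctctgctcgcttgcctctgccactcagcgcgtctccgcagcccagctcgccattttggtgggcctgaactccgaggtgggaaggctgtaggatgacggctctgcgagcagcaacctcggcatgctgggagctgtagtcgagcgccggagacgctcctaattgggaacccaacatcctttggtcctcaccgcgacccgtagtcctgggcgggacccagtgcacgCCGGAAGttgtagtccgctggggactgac
Eif2b5, chr16:20498567-20498846, plus strand: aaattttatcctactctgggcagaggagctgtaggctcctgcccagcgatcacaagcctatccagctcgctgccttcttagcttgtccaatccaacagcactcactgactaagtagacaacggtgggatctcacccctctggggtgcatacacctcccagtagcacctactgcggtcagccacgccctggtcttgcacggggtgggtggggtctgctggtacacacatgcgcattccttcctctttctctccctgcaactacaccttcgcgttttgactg
Eif5a, chr11:69921357-69921636, minus strand: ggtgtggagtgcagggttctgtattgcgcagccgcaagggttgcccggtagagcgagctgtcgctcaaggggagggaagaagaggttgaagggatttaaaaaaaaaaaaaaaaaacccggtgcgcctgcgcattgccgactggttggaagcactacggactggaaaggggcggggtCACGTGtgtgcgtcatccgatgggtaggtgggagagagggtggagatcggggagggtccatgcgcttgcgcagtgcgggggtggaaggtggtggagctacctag
Eif5a2, chr3:28781027-28781306, plus strand: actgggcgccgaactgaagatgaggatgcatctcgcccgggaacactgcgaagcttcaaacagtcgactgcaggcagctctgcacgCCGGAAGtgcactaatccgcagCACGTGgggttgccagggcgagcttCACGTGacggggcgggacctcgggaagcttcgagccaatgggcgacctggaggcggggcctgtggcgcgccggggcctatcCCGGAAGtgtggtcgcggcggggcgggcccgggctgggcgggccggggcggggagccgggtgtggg
The E-box was found before Eif5a and Eif5a2 and before none of the 4 eIF2B genes, and the ETS core lay near the starts of Eif2b2, Eif2b4 and Eif5a2. RefSeq lists 6 starts for Eif5a, of which 3 have the E-box and 1 the ETS core in this window; the entry printed is the one whose E-box lies nearest to its start, 74 bases before it. Of the 63 genes, 45 matched a promoter entry by symbol, with 59 entries in all. The E-box was in the window of 12 of these 45 (26.7%), against 7.71% of all 27025 genes with an entry and 11.8% of those with at least 5 CPM in a library. The ETS core was in 16 (35.6%), against 9.48% and 22.2%. A gene was taken to have a motif if any of its entries did, so genes with more entries had more chances. The entries of the other genes were not counted, so these shares may not be alike in that respect. Above that level, the 12 genes with an E-box, Eif5a and Eif5a2 among them, had a median log2 fold of 0.12 and the 32 without of -0.15. For the ETS core the medians were -0.02 for the 16 genes with it and -0.08 for the 28 without. Whether the fold goes with either motif was not tested. A match is a description of letters, not of binding.

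The libraries held 4080791 (IL-33) and 1573707 (PBS) counts, so that 1 count is worth 0.245 and 0.635 CPM. Of 7 T cell and Treg markers in the table, all were counted in both libraries, Ctla4 at 6186 and 6246 CPM, but Foxp3 with 40 counts and 1. Of 5 fibroblast markers, 3 were counted in the PBS library (66.1 CPM in sum, mostly Col3a1) and 0 in the IL-33 library. The other lists held little in either library: 8 skeletal muscle markers summed to 0.490 and 2.54 CPM (Ckm, Mb, Myh2 and Des at 0), 7 monocyte and macrophage markers to 36.8 and 48.9 CPM (Cd68 at 0), 6 dendritic cell markers to 23.3 and 33.04 CPM (Flt3 at 0; Itgax with 0 counts against 19, H2-Ab1 with 7 against 19 and Siglech with 28 against 2) and 4 neutrophil markers to 4.41 and 5.72 CPM (S100a8 and S100a9 at 0). The monocyte and macrophage sum joins genes that went opposite ways. Lyz2 had 78 counts against 61 (ratio 0.493, 0.348 to 0.701) and Itgam 66 against 12 (2.12, 1.14 to 4.31). Sums for 4 B cell markers were 32.3 and 26.7 CPM, nearly all Cd79b, for 4 CD8 T and NK cell markers 21.6 and 13.3 CPM, all Cd8b1, and for 4 endothelial markers 49.3 and 52.1 CPM, mostly Pecam1, with Cdh5 at 3 counts against 11. The part of other cells in the results below was not tested, and fewer cells of a type and less RNA per cell cannot be told apart in such bulk libraries.

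Together the 63 genes took 2.10% of all counts with IL-33 and 2.27% with PBS, and Eef1a1 alone took 50.05% and 50.4% of that. Of the 63, 59 reached 5 CPM in a library, and the other 4 (Eef1a2, Eif3j, Eif4e1b and Eif2c4) had 0 counts in both. The call used here is a 2-fold difference on log2(CPM + 1). By it 4 of the 59 were higher (Eif2b1, Eif2b2, Eif5a2 and Eefsec), against 15.5% of the 9005 genes over the same level, and 1 was lower (Eif4ebp3), against 16.3%. The other 54 lay within 2-fold. Of the 59, 26 were above 0 (45.6% of all genes were), and the median log2 fold was -0.10, beside -0.08 for all genes. All 5 genes past 2-fold were among the 16 with a mean under 50 CPM, and of the 43 above that none was, where 4.43% of genes of 50 to 200 CPM were 2-fold higher and 6.48% lower, and of those above 200 CPM 1.21% and 1.01%. The interval lay above 1 for 15 genes and below 1 for 20, against 28.6% and 35.1% of all genes. An interval that leaves out 1 is common among well-counted genes. With a mean of at least 200 CPM, 74.3% of 990 genes had one. Of the 20 factor genes at that level, 5 lay above 1 and 9 below.

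**Figure D1:**
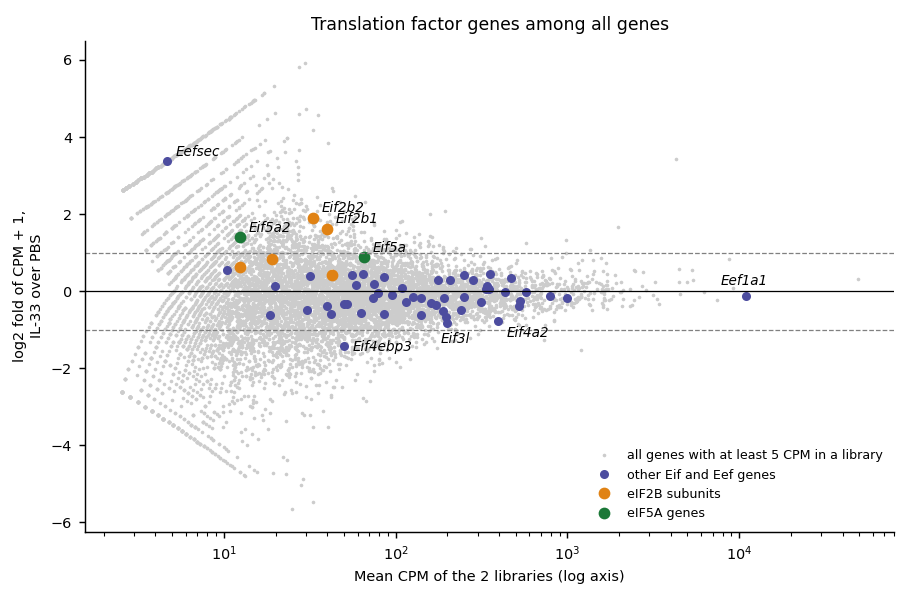
Mean CPM of both libraries (log axis) against the log2 fold of CPM + 1, IL-33 over PBS, for 9005 genes (grey) and 59 translation factor genes (coloured), with dashed lines at 2-fold. The 43 factor genes whose mean reaches 50 CPM all lie between the dashed lines, and the 5 eIF2B genes and 2 eIF5A genes all lie above 0.

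**Figure D2:**
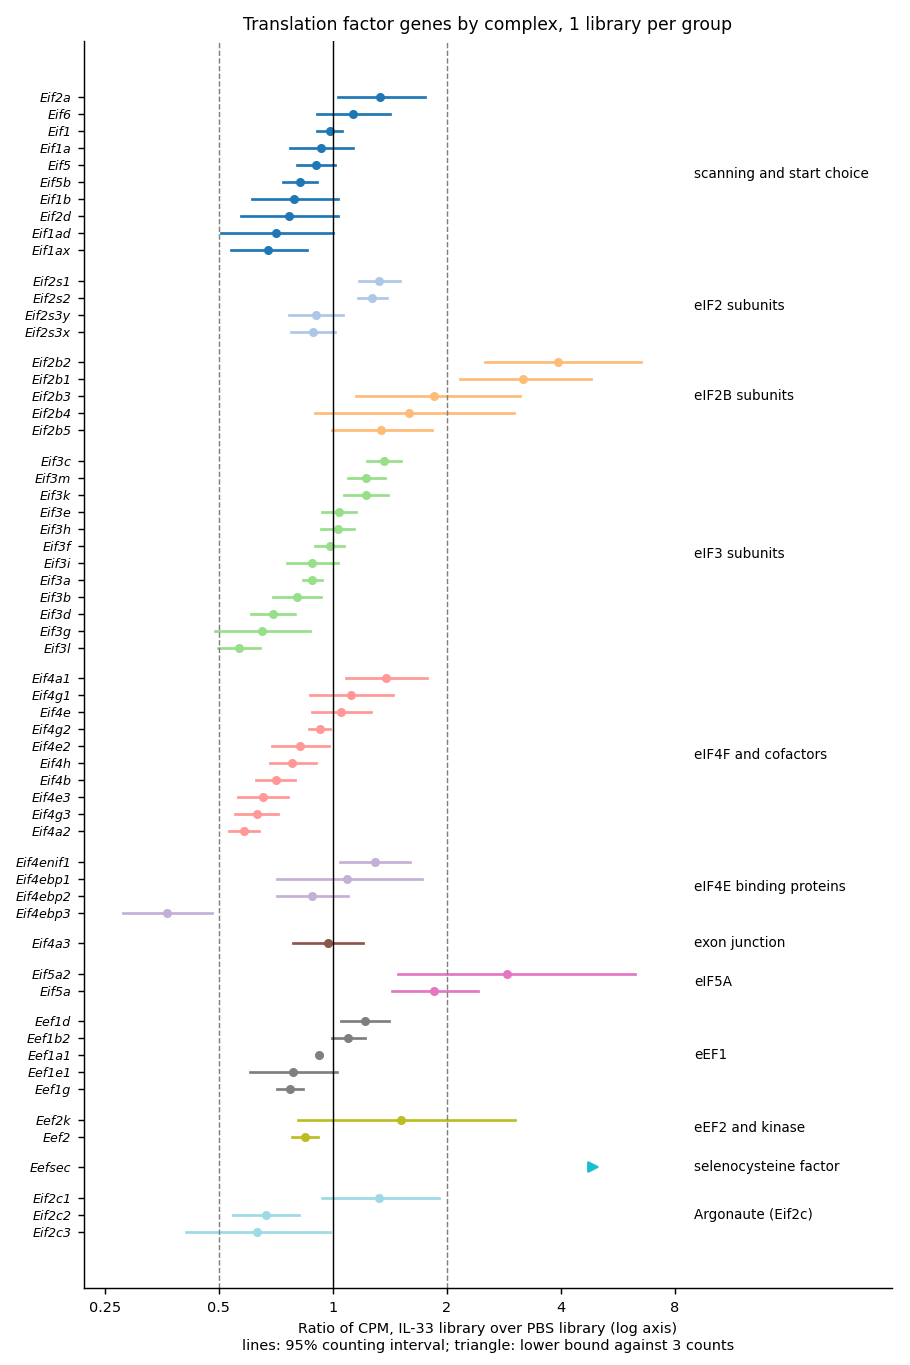
Ratio of CPM, IL-33 over PBS (log axis), for each factor gene, grouped by complex, with lines for the 95% counting interval and dashed lines at 2-fold. The triangle sets Eefsec, which had 0 counts in the PBS library, against 3 counts there (4.88-fold), and its counting interval starts lower, at 3.78. Intervals of Eif2b1, Eif2b2 and Eif4ebp3 lie wholly beyond 2-fold.

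All 5 subunit genes of eIF2B, the guanine nucleotide exchange factor, lay above 1. The ratio was past 2-fold for the alpha and beta subunits. Eif2b1 (alpha subunit; chromosome 5, 124570213 to 124579131) had 247 (IL-33) and 30 (PBS) counts, 60.5 against 19.1 CPM, a ratio of 3.18 (2.17 to 4.81). Eif2b2 (beta subunit; chromosome 12, 85219481 to 85226628) had 215 against 21 counts, 52.7 against 13.3 CPM, a ratio of 3.95 (2.52 to 6.51). Among genes with a mean of 20 to 50 CPM, where both lie, 13.1% of 2023 were 2-fold higher. The remaining subunits were within 2-fold. Eif2b3 (gamma, chromosome 4) had 101 against 21 counts, a ratio of 1.85 (1.15 to 3.13). Eif2b4 (delta, chromosome 5) had 62 against 15, a ratio of 1.59 (0.896 to 3.02), and Eif2b5, the catalytic epsilon subunit (chromosome 16), had 198 against 57, a ratio of 1.34 (0.993 to 1.83), so that both intervals held 1. The median log2 fold of the 5 was 0.84, and 28.4% of all genes were at or above the lowest of them. Summed, the subunits had 823 counts against 144, a ratio of 2.204 (1.84 to 2.65). Eif2b1 and Eif2b2 made up 56.1% of these counts with IL-33 (52.7 to 59.5, Wilson 95% interval, as for all shares below) and 35.4% with PBS (28.1 to 43.5). These 2 genes have the highest ratios of the 5, so a larger share with IL-33 follows from their choice and is no further evidence. Exons of Eif2b4 overlap those of Snx17 on the other strand by 204 bases (7.8% of its exon bases), and whether counting used strand is not stated; Snx17 had a ratio of 0.741.

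The substrate of eIF2B, eIF2, differed less and split by subunit. Eif2s1, the alpha subunit that stress kinases phosphorylate, stood at 284 and 214 CPM (ratio 1.33, 1.17 to 1.503), and Eif2s2 (beta) at 529 and 416 CPM (1.27, 1.16 to 1.39). The gamma subunit is encoded by a gene on X and one on Y. Eif2s3x stood at 180 and 203 CPM (0.777 to 1.01 for the ratio) and Eif2s3y at 119 and 132 CPM (0.766 to 1.07), so neither differed beyond counting error. The Y copy held 39.8% (37.1 to 42.6) of the pair's counts with IL-33 and 39.4% (35.3 to 43.6) with PBS. The eIF2B genes made up 15.3% (14.4 to 16.3) of the summed eIF2 and eIF2B counts with IL-33 and 8.65% (7.40 to 10.1) with PBS. Such shares do not depend on how the libraries are scaled to each other.

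Of the eIF5A genes, Eif5a2 was past 2-fold and Eif5a was not, and of the enzymes that modify the protein, Dohh was and Dhps was not. The ratios of Eif5a, Eif5a2 and Dhps were above 1, and Dohh, with 0 counts in the PBS library, has no ratio. Eif5a (chromosome 11, 69916714 to 69921958) had 346 against 72 counts, 84.8 against 45.8 CPM, a ratio of 1.85 (1.43 to 2.42). Its paralog Eif5a2 (chromosome 3, 28781276 to 28798846) had 75 against 10, 18.4 against 6.35 CPM, a ratio of 2.89 (1.49 to 6.28), where 29.5% of genes with a mean under 20 CPM were 2-fold higher and 27.2% lower. The paralog held 17.8% (14.5 to 21.8) and 12.2% (6.76 to 21.01) of the pair's counts. eIF5A works only after a lysine is turned into hypusine by deoxyhypusine synthase and deoxyhypusine hydroxylase. Dhps, the first enzyme, had 205 against 39 counts, a ratio of 2.03 (1.43 to 2.93), which is just inside the 2-fold rule on log2(CPM + 1) at 0.99. Dohh, the second, was counted 30 times with IL-33 and 0 times with PBS, and the counting interval of its ratio starts at 2.95. It reached 5 CPM through the IL-33 library alone, so it could only be called higher. Its mean is under 20 CPM, where 29.5% of genes were 2-fold higher.

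**Figure D3:**
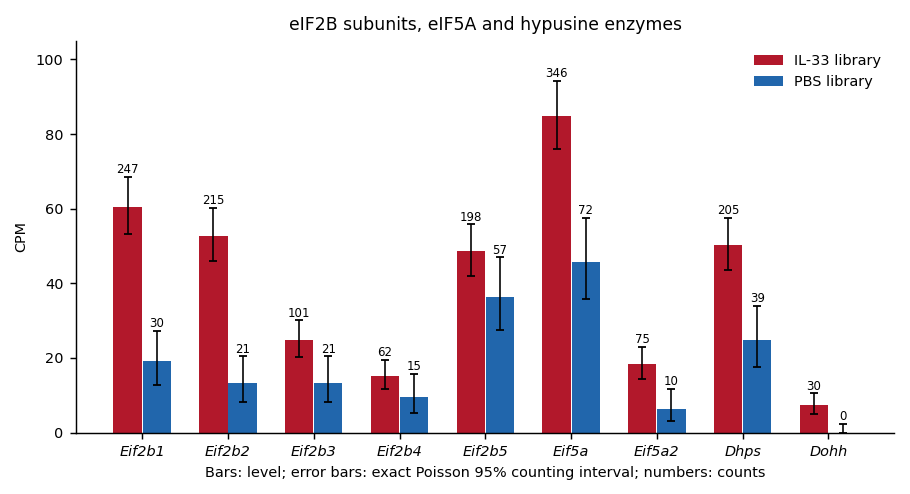
CPM of the eIF2B subunit genes, the eIF5A genes and the hypusine enzyme genes in the IL-33 (red) and PBS (blue) libraries, with exact Poisson 95% counting intervals and the count above each bar. The IL-33 bar is the taller in all 9 genes, for example 52.7 against 13.3 CPM for Eif2b2, and the intervals of Eif2b3, Eif2b4 and Eif2b5 overlap.

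Of the 11 genes of the cap-binding complex and its helicase cofactors, Eif4e1b had 0 counts and 7 of the other 10 had a log2 fold below 0. Of all 9005 genes 4900 were below 0. The median log2 fold of the 10 was -0.32, and 0 were past 2-fold. The helicase genes went opposite ways. Eif4a1 (chromosome 11, 69666936 to 69672423) had 304 against 85 counts, 74.5 against 54.0 CPM, a ratio of 1.38 (1.08 to 1.78). Eif4a2 (chromosome 16, 23107444 to 23114136) had 1180 against 779 counts, 289 against 495 CPM, a ratio of 0.584 (0.533 to 0.640). Eif4a1 thus held 20.5% (18.5 to 22.6) of the pair's counts with IL-33 and 9.84% (8.03 to 12.01) with PBS. Per kb of transcript, Eif4a2 stood above Eif4a1 in both, at 131 against 42.0 CPM per kb with IL-33 and 224 against 30.4 with PBS. Annotated exons of both genes overlap small nucleolar RNAs on the same strand. Those of Eif4a2 also overlap Rfc4 on the other strand by 194 bases (3.6%), and Rfc4 had a ratio of 0.607.

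In the other cap-complex families the paralogs also differed in ratio, but no cap-binding or scaffold gene had an interval above 1. Of the cap-binding proteins, Eif4e, the main initiation form, stood at 112 and 106 CPM (ratio 1.05, 0.880 to 1.26), Eif4e2, a cap binder tied to repression, at 103 and 126 CPM (0.822, 0.693 to 0.978) and Eif4e3 at 111 and 169 CPM (0.654, 0.561 to 0.764). Of the exon bases of Eif4e3, 14.8% are shared with another protein-coding gene on the same strand, so its count is uncertain. Eif4e held 34.3% (31.8 to 36.9) and 26.5% (23.2 to 30.04) of the 3 genes' counts, and Eif4e3 33.9% (31.4 to 36.5) and 42.2% (38.4 to 46.0). Of the scaffolds, Eif4g1 stood at 61.8 and 55.3 CPM (ratio 1.12, 0.872 to 1.44) and Eif4g3 at 151 and 240 CPM (0.629, 0.553 to 0.717). Eif4g2, which encodes a scaffold that does not bind eIF4E, stood at 759 and 822 CPM (0.924, 0.865 to 0.986) and held 78.1% (76.8 to 79.4) and 73.6% (71.5 to 75.6) of the scaffold counts. The helicase cofactor genes Eif4b (198 and 281 CPM, ratio 0.707, 0.629 to 0.795) and Eif4h (150 and 192 CPM, 0.783, 0.681 to 0.901) had intervals below 1.

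The eIF4E-binding proteins had values on both sides of 1. Eif4ebp1 and Eif4ebp2 encode the mTORC1-controlled 4E-BPs, and neither differed beyond counting error: Eif4ebp1 had 85 against 30 counts (ratio 1.09, 0.713 to 1.72) and Eif4ebp2 284 against 124 (0.883, 0.713 to 1.10). Eif4ebp3 (chromosome 18, 36664060 to 36665917) had 109 against 115 counts, 26.7 against 73.1 CPM, a ratio of 0.366 (0.279 to 0.479), and made up 22.8% (19.3 to 26.8) against 42.8% (37.0 to 48.7) of the 4E-BP counts. Among genes with a mean of 20 to 50 CPM, 17.8% were 2-fold lower. Of the exon bases of Eif4ebp3, 67.3% are also annotated to another transcript on the same strand, so its count is uncertain; its upstream neighbour Ankhd1 had a ratio of 1.01 (0.883 to 1.15). Eif4enif1, the 4E transporter that carries eIF4E into the nucleus, stood at 96.8 and 75.0 CPM (1.29, 1.05 to 1.60).

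**Figure D4:**
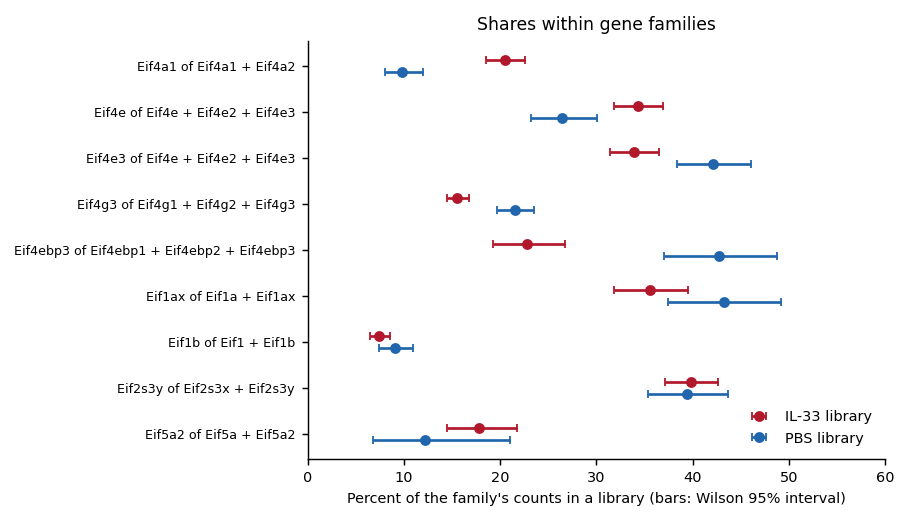
Share of a gene family's counts held by 1 member in the IL-33 (red) and PBS (blue) libraries, in percent, with Wilson 95% intervals of counting error. The intervals are apart for Eif4a1, Eif4e, Eif4e3, Eif4g3 and Eif4ebp3 and overlap for Eif1ax, Eif1b, Eif2s3y and Eif5a2.

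The scaffold complex eIF3, which bridges the small ribosomal subunit and eIF4G, had 12 of its 13 listed subunit genes over 5 CPM, none past 2-fold and a median log2 fold of -0.10. Of the 12, 3 had intervals above 1, 5 below 1 and 4 held 1, where 28.6% of all genes lay above 1 and 35.1% below. Among all genes with a mean of at least 200 CPM, 74.3% had an interval that left out 1. Eif3c, of the structural core, was at 410 and 300 CPM (ratio 1.37, 1.23 to 1.52), Eif3m at 310 and 252 CPM (1.23, 1.10 to 1.38) and Eif3k at 227 and 186 CPM (1.22, 1.07 to 1.40). Eif3l was the lowest, at 145 and 256 CPM (0.566, 0.497 to 0.643). The proteins of Eif3k and Eif3l sit together at the edge of the complex. Eif3d, a cap-binding subunit, was at 156 and 224 CPM (0.696, 0.610 to 0.795), but 43.3% of its exon bases overlap an antisense gene. Eif3g was at 33.1 and 50.8 CPM (0.651, 0.490 to 0.869). The large core genes Eif3a (935 and 1060 CPM) and Eif3b (144 and 179 CPM) had ratios of 0.882 and 0.804, and Eif3e, Eif3f, Eif3h and Eif3i had ratios of 0.882 to 1.04 whose intervals held 1. Eif3j was listed at 0 in both libraries; the mouse annotation has a pair of such genes, Eif3j1 and Eif3j2, and whether shared reads were dropped was not tested.

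Per kb of transcript, the levels of eIF3 subunits ranged from 30.05 CPM per kb for Eif3g to 294 for Eif3k with IL-33, and from 46.2 for Eif3g to 265 for Eif3h with PBS. Eif3h, Eif3k, Eif3e and Eif3m were among the 5 highest in both libraries, and Eif3g and Eif3b were the lowest in both. The order between neighbours was not fixed: Eif3k stood above Eif3h in the IL-33 library (294 and 274 CPM per kb) and below it in the PBS library (241 and 265).

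**Figure D5:**
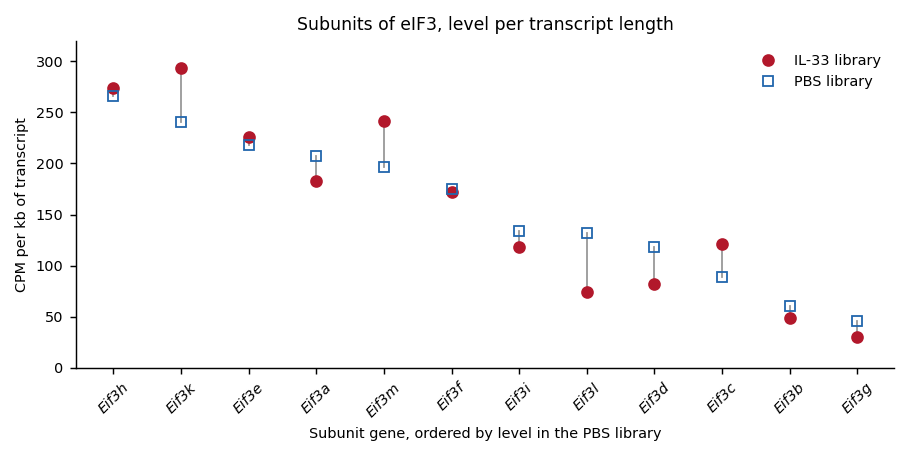
CPM per kb of transcript for 12 subunit genes of eIF3 in the IL-33 (filled circles) and PBS (open squares) libraries, ordered by the PBS level. Eif3l shows the widest relative gap, 74.6 against 132 CPM per kb, and Eif3g is the lowest in both libraries.

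Of the 10 genes of scanning and start site choice, 8 were below 0 (4900 of all 9005 genes were), with a median log2 fold of -0.22 and 0 past 2-fold. Eif1, the start codon fidelity factor, had most counts, at 571 and 581 CPM (ratio 0.982, 0.909 to 1.06), and its paralog Eif1b stood at 45.8 and 57.8 CPM (0.792, 0.614 to 1.03). Eif1b held 7.43% (6.47 to 8.52) and 9.05% (7.43 to 11.0) of that pair's counts. The eIF1A genes Eif1a (91.9 and 98.5 CPM) and Eif1ax (50.7 and 75.0 CPM) had ratios of 0.933 and 0.676 (0.537 to 0.855). Eif5b, which joins the ribosomal subunits, stood at 283 and 345 CPM (0.820, 0.739 to 0.909), with 16.8% of its exon bases shared with Rev1 on the other strand. Eif5, which triggers GTP hydrolysis by eIF2, stood at 238 and 264 CPM (0.902, 0.803 to 1.01). Eif2a, a separate factor despite its name, was the single member with an interval above 1 (63.7 and 47.7 CPM, 1.34, 1.03 to 1.75). Eif6, which keeps the large subunit from joining early, Eif2d and Eif1ad had ratios of 1.13, 0.766 and 0.709 with intervals that held 1. Of the exon bases of Eif1ad, 15.3% overlap Banf1 on the other strand, which had 489 against 129 counts (ratio 1.46). For Eif1b, 12.7% overlap an antisense gene.

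Elongation factor genes held most of the members' counts through Eef1a1, and of the 7 in eEF1 and eEF2 over 5 CPM none was past 2-fold. Eef1a1, which delivers aminoacyl-tRNA, had 42936 and 17990 counts, 10521.5 and 11432 CPM, a ratio of 0.920 (0.904 to 0.937), and ranked the first of all 63 genes per kb in both libraries. Its muscle and neuron form Eef1a2 had 0 counts in both, which allows up to 0.00699% and 0.0167% of the pair's counts. Subunits of the eEF1B exchange factor split: Eef1d was at 195 and 160 CPM (1.22, 1.05 to 1.41), Eef1b2 at 359 and 326 CPM (1.10, 0.995 to 1.22) and Eef1g at 457 and 592 CPM (0.772, 0.713 to 0.836). Eef1e1, a component of the multi-tRNA-synthetase complex, was at 43.9 and 55.9 CPM (0.784, 0.604 to 1.02). Eef2, the translocase, stood at 485 and 574 CPM (0.844, 0.780 to 0.914), and Eef2k, the kinase that inhibits it, had 51 against 13 counts (1.51, 0.811 to 3.03). Eefsec, which inserts selenocysteine, was counted 38 times with IL-33 and 0 times with PBS, and the counting interval of its ratio starts at 3.78. It reached 5 CPM through the IL-33 library alone, at a level where 29.5% of genes were 2-fold higher. Of its exon bases, 11.0% overlap an antisense gene. The multicopy pseudogenes of genes such as Eef1a1 can take or lose reads in ways the table does not show.

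Of the Eif names that lie outside translation, Eif4a3, the helicase of the exon junction complex, stood at 77.7 and 80.1 CPM (0.970, 0.787 to 1.20). The Argonaute genes Eif2c1, Eif2c2 and Eif2c3 (now Ago1, Ago2 and Ago3) had ratios of 1.33 (0.939 to 1.91), 0.666 (0.546 to 0.814) and 0.632 (0.411 to 0.985). Without these rows the median log2 fold of the remaining 56 was -0.07, with 4 higher and 1 lower.

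Genes that regulate or work beside these factors were taken from 7 lists. Among the eIF2 kinases and the phosphatase subunits that reverse them, 0 of 6 were 2-fold higher and 1 lower: Eif2ak4, the sensor of uncharged tRNA, had 4 counts against 23, or 14.9 times as much in the PBS library (5.09 to 59.3). The others stood within 2-fold, among them Eif2ak3, the kinase of the endoplasmic reticulum, at 0.713 (0.540 to 0.949) and Ppp1r15a, the inducible phosphatase subunit, at 425 and 307 CPM (1.38, 1.25 to 1.53). In the mTORC1 list 16 of 20 genes in the table were over 5 CPM, with 1 higher, 3 lower and a median of -0.07. Mtor itself had 47 against 81 counts, 11.5 against 51.5 CPM, a ratio of 0.224 (0.153 to 0.324), the lowest of the list; Rragc was at 0.445 (0.368 to 0.539), Mlst8 at 0.358 (0.155 to 0.821) and Lamtor2 at 2.70 (1.22 to 7.06). The 5 kinase genes upstream of eIF4E phosphorylation were all below 0, as were 4900 of all 9005 genes, and within 2-fold (median -0.41). Mapk14 was at 0.595 (0.499 to 0.710), Mknk1 at 0.700 (0.497 to 0.995) and Mknk2 at 0.752 (0.664 to 0.853).

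Poly(A)-binding and cap-complex partners had a median of -0.25, with 1 higher and 1 lower of 13. Paip1, a partner of the poly(A)-binding protein that favours translation, was higher at 2.49 (1.55 to 4.21), and Mcts2, with 2 counts against 17, was lower, being 22.04 times as high in the PBS library (5.23 to 197). Dhx9, an RNA helicase, was at 1.72 (1.41 to 2.12). Termination and recycling genes had 0 higher and 1 lower of 6 (median -0.12): Pelo, the rescue factor of stalled ribosomes, was at 0.436 (0.288 to 0.663), the recycling ATPase gene Abce1 at 1.52 (1.21 to 1.92) and Abcf1 at 0.689 (0.614 to 0.775). Of the 6 hypusine and diphthamide genes over 5 CPM (median 1.02), 3 were higher and 0 lower. Besides Dohh these were Dnajc24 (90 counts against 0, interval from 9.22) and Dph2 (31 against 5, 2.39, 0.922 to 7.88), both for the diphthamide of eEF2. Dph3 (0.717, 0.588 to 0.877) and Dph5 (0.698, 0.509 to 0.965) of the same pathway were below 1. With Dohh and Dnajc24 at their bounds the list's median is the same, since both stay above it. Mitochondrial translation factors had 2 higher and 0 lower of 8 (median -0.11): Mtif3 with 39 counts against 1 (15.0, 2.55 to 609) and Mrrf with 30 against 0 (interval from 2.95). Next was Mtrf1l at 0.620 (0.359 to 1.09). Against these counts stand 15.5% of all genes higher and 16.3% lower. Dohh, Dnajc24, Dph2, Mtif3, Mrrf, Lamtor2, Eif2ak4, Mlst8 and Mcts2 have means under 20 CPM, where the shares are 29.5% and 27.2%. Dohh, Dnajc24, Dph2, Mtif3, Mrrf and Lamtor2 reached 5 CPM through the IL-33 library alone, so they could not be called lower. Eif2ak4, Mlst8 and Mcts2 reached it through the PBS library alone, so they could not be called higher. The list counts and medians above include these genes.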

How the data were processed

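The authors deposited a single table of unnormalised read counts with 23337 gene symbols as rows and 2 libraries as columns. The submitters' processing notes name TopHat2 (2.0.10), Cufflinks (2.2.1) and the build mm10, but not their roles. Which annotation and counter were used, and whether strand was, is not given in the sources used here. Per the labels' protocols, poly(A) RNA was converted to cDNA, amplified, cut with a transposon and read as pairs of 25 bp; no molecular identifiers are named, so intervals and floors cover counting error only. Columns were matched to libraries by title, with 0 columns unused and 0 rows without a gene name.

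CPM was computed from library totals. Comparisons took genes that reach 5 CPM in either library, with a log2 fold on CPM + 1, which understates differences of low genes. Ratios are of CPM without the pseudocount, with exact conditional (Clopper-Pearson) 95% intervals. Against 0 counts in the PBS library, only the lower end of this interval is given, and a share of 0 counts takes 3 counts as its limit. Levels per kb used the longest principal basic transcript of GENCODE M21 (GRCm38, the assembly of mm10), or the longest basic one where none is principal; all 63 genes matched, 5 by an older name. Since Eif4g2 lengths vary widely between transcripts, no level per kb is given for it.

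Members, complexes and lists were chosen with earlier results of these data known. Any member could be named, and full values were set for the most counted gene of each complex, those past 2-fold and all members of paralog families. Of each other list, the 3 genes farthest from 0 and all past 2-fold were named. Other values were chosen after they were seen. The computation was tested on simulated data. Python 3.11.15, pandas 2.3.3, scipy 1.17.1, R 4.3.3, edgeR 4.0.16 and DESeq2 1.42.0 (scaling factors only) were used.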

Additional observations from a re-analysis of the deposited data

How the results depend on the processing

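The 4 higher and 1 lower genes were the counts also under TMM scaling (edgeR), DESeq2 size factors, totals without Malat1, Rn45s and mitochondrial genes, pseudocounts of 0.5 and 5, no floor, and centring on genes of like transcript length. With a floor of 20 CPM 2 were higher, since Eif5a2 and Eefsec are not over it, and with a mean of at least 50 CPM 0 were higher and 0 lower, since all 5 lie under it. At 1.5-fold 7 were higher and 7 lower, and by the counting interval 15 were higher and 20 lower. Each of the 59 single-gene values stayed on its side of 2-fold under the 6 scaling, pseudocount and length alternatives. Eif5a came close to the line, with a log2 fold of 0.995 with TMM and 0.988 with DESeq2 size factors. Dhps, at 0.99 in the main setting, is not one of the 59 and was not rerun. In 9 genes the sign changed under at least 1 of the 6 alternatives: Eef1a1, Eif1, Eif1a, Eif3a, Eif3f, Eif3h, Eif4a3, Eif4ebp2 and Eif4g2. Of these the value farthest from 0 had a size of 0.18. TMM moved the median of all genes from -0.08 to 0.05 and that of the 59 genes from -0.10 to 0.02, so neither median has a settled direction. With TMM the median of the cap-binding complex and its cofactors was -0.20 and that of scanning and start site choice -0.10, both nearer to 0 than in the main setting. The eIF3 median changed sign, from -0.10 to 0.02. So did that of eEF1, from -0.12 to 0.001, and that of the eIF4E-binding proteins, from -0.03 to 0.09. The direction of these medians is therefore not settled. The eIF2B median ranged from 0.70 (pseudocount 5) to 1.23 (floor 20 CPM, where Eif2b4 is left out) and had no value at a mean of 50 CPM, which no subunit reached. The eIF5A median ranged from 0.88, where the floors left Eif5a alone, to 1.25 with TMM. No paired analysis was possible because each group holds 1 library. Depth limits the thinly counted genes: 30 counts or fewer in the PBS library stand behind Eif2b1 to Eif2b4, Eif4ebp1, Eif5a2, Eef2k and Eefsec.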
